A study of Mus musculus with 6 samples.

Results

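The mRNA levels of 10 genes used as markers of alternative (M2) activation were examined in bone marrow-derived macrophages (BMDMs) of PKM2ΔMAC and PKM2FL/FL mice, labelled as LPS/IFN-γ-primed. The genes were taken by symbol from the 23935 symbols of the expression tables, all 10 were found, and 9 are described. These are Il4ra and Stat6 of the IL-4 receptor branch, the lectins Clec10a, Mgl2 and Mrc1, the scavenger receptors Cd163 and Stab1, and the secreted products Chil3 and Retnla. BMDMs are macrophages grown from marrow cells, here over 7 days in M-CSF. Both genotypes carried the floxed Pkm allele. By the labels and methods of the study, both were primed for 16 h with 10 ng/mL LPS, a bacterial outer membrane component, and 25 ng/mL IFN-γ. PKM2ΔMAC mice additionally carried LysM-Cre, a Cre placed in the Lyz2 locus that is active in macrophages and other myeloid cells, whereas their PKM2FL/FL littermates lacked it. Each genotype had 3 libraries of total RNA. The age of the donors is not given, and male mice are named for BMDMs of the flow cytometry but not for these libraries, and no unprimed or IL-4-treated culture was analysed here.

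Alternative activation is the state that macrophages take up when IL-4 or IL-13 binds a receptor built on IL4Rα. The receptor's kinases phosphorylate STAT6, which enters the nucleus and switches on genes such as Chil3, Retnla, Mrc1, Clec10a and Mgl2. Cd163 and Stab1 are scavenger receptors that are better known as targets of IL-10 and glucocorticoids. In mouse macrophages LPS and IFN-γ drive the opposite, pro-inflammatory (M1) state, so the comparison asks whether the M2 genes differ when PKM2 is lost in cultures labelled as primed with them.

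Of the 8 genes with enough counts to be tested, 1 differed between the genotypes after adjustment over all genes, of which 0.412% did. Clec10a, the galactose-type lectin CD301a of macrophages and dendritic cells, was lower in PKM2ΔMAC BMDMs, at 0.576 of its PKM2FL/FL level. Its neighbour and close relative Mgl2 was at 0.672 and Chil3 at 3.93 times the PKM2FL/FL level, with no overlap between the genotypes, but neither passed the adjusted threshold. Mrc1, which encodes CD206, Il4ra and Stat6 were at 0.920 to 0.976 of the PKM2FL/FL level in CPM and did not pass. Retnla was barely detected in either genotype.

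The libraries held between 49957449 and 54524651 counts, and levels are given as CPM, counts scaled to a common library total. Where a gene has 0 counts, up to 3 would not be detectable, which is 0.0546 to 0.0604 CPM and covers counting error only. Pkm, the targeted gene, had 1706 CPM in PKM2FL/FL BMDMs and 1068 CPM in those of PKM2ΔMAC mice (log2 fold change -0.68, edgeR adjusted p = 0.00913), with reads of all its isoforms counted together. The macrophage markers other than Lyz2 summed to between 6719 and 7740 CPM. Against the priming label, Nos2 had between 2 and 26 counts per library, Il6 between 7 and 18 and Il12b between 2 and 6. The 3 priming genes with the highest levels were Irf1, at 55.0 and 54.7 CPM in PKM2FL/FL and PKM2ΔMAC BMDMs, Gbp2 at 25.9 and 23.7 CPM, and Tnf at 11.2 and 14.6 CPM. Collagen genes of stromal cells were high in every library, with the 6 stromal markers between 4911 and 6230 CPM in sum. PKM2ΔMAC replicate 2 stood apart from its group: chi-square over its degrees of freedom was 47.6 and 59.6 against the other PKM2ΔMAC libraries, and 8.10 to 14.9 for the remaining pairs of a genotype. In bulk RNA, fewer cells of a type and less RNA per cell cannot be told apart.

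Clec10a and Mgl2 lie next to each other on the plus strand of chromosome 11 in GRCm38, Mgl2 from 70130329 to 70137550 and Clec10a from 70156197 to 70170834, with starts 25868 bases apart. Their coding sequences in GENCODE M21 were identical at 88.7% of 914 aligned bases. The longest stretch without a difference had 183 bases, from coding base 502 to 684 in Clec10a and from 550 to 732 in Mgl2. It is shown because a read that falls inside it cannot be given to one of these genes by its sequence alone.
Clec10a and Mgl2, shared coding stretch: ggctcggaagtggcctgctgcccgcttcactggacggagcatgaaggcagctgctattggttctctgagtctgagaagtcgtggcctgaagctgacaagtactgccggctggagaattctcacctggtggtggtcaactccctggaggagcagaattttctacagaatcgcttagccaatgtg
Of all 50-base windows of the transcripts, 10.6% in Clec10a and 16.5% in Mgl2 also occurred in another gene. For Chil3 this share was 29.4%, mostly in Chil4, whose coding sequence was identical to that of Chil3 at 95.4% of the aligned bases. Chil4 was not among the symbols of the expression tables, so no level is given for it. The share was 0 for Mrc1, Retnla, Stab1, Il4ra and Stat6, and 0.091% for Cd163. How reads that fit several genes were counted is not stated, so the levels of Clec10a, Mgl2 and Chil3 carry that uncertainty.

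STAT proteins bind palindromes of TTC and GAA, and STAT6 is known to prefer a spacing of 4 bases, TTCNNNNGAA, over the 3 bases of TTCNNNGAA that other STATs prefer. RefSeq promoters of GRCm38.p6, from 250 bases before to 50 after the start, were present for 8 of the 9 genes. Both motifs read the same on either strand. TTCNNNNGAA occurred in 6.95% and TTCNNNGAA in 8.30% of all 32851 promoters. Only the promoters of Retnla and Chil3 held a match, Retnla one with a spacing of 4 and Chil3 one with a spacing of 3. They are shown up to the start of the gene in GENCODE M21, with the match in capitals.
Retnla, chr16:48842359-48842550, plus strand: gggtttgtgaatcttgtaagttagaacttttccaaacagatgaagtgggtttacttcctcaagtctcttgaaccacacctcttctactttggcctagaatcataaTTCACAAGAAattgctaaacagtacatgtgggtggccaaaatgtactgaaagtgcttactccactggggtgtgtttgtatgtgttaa
Chil3, chr3:106167565-106167814, minus strand: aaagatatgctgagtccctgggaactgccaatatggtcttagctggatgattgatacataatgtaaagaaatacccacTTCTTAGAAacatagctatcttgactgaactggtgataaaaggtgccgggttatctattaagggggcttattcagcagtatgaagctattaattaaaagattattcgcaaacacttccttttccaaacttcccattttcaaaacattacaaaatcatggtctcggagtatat
A match to these letters is a description of the sequence and not a binding site. Retnla was near 0 in these libraries and Chil3 was not, as given below.

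Compared per length, as TPM (transcripts scaled to a common total after division by their length) averaged over the 6 libraries, the genes spanned several orders of magnitude. Stab1 had the highest level at 870 ± 142 TPM (SD, n = 6), followed by Mrc1 at 470 ± 47.5 TPM, Stat6 at 195 ± 4.88 TPM and Il4ra at 108 ± 2.75 TPM. Clec10a at 41.9 ± 12.0 TPM and Chil3 at 39.6 ± 30.6 TPM came next, and their ranges over the libraries overlapped. Their order turned with genotype, since Clec10a was the higher in every PKM2FL/FL library (means of 52.2 and 15.5 TPM) and Chil3 in every PKM2ΔMAC library (63.6 and 31.6 TPM). Mgl2 at 5.72 ± 1.21 TPM and Cd163 at 5.47 ± 1.67 TPM overlapped too, with a mixed order within both genotypes. Retnla stood last at 0.820 TPM and was listed at 0 in PKM2FL/FL replicate 2. Every other pair of neighbours in this order lay apart in all 6 libraries.

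**Figure D1:**
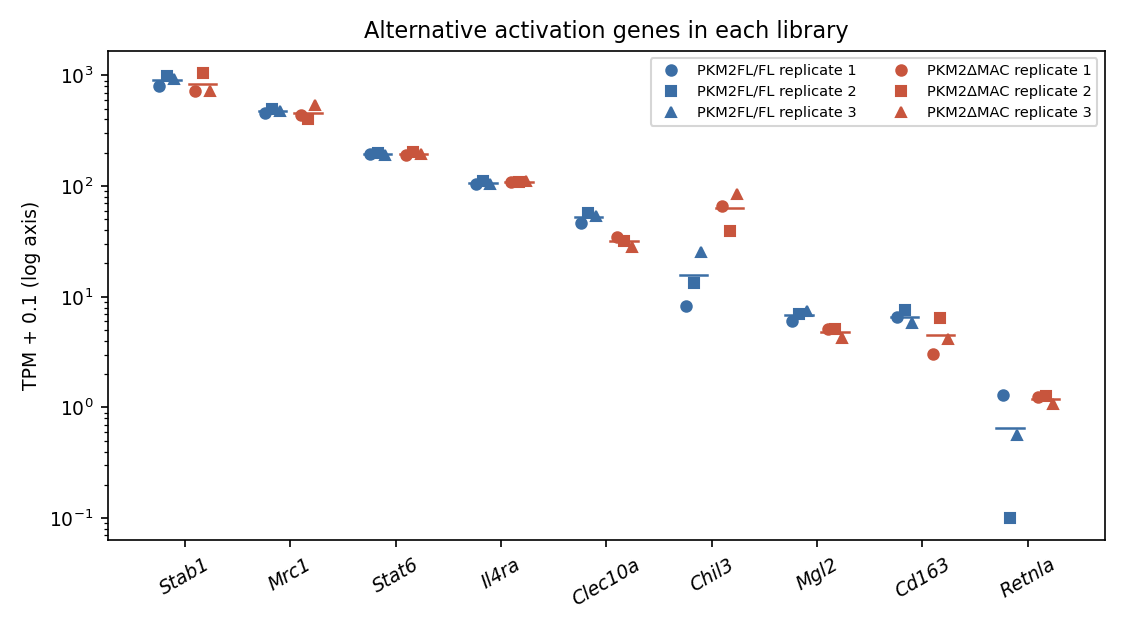
TPM of the 9 genes in each library on a log axis, after adding 0.1, with PKM2FL/FL in blue and PKM2ΔMAC in red. Lines mark the genotype means. Stab1 and Mrc1 sit at the top and Retnla at the bottom in both genotypes, and the genotypes separate for Clec10a, Chil3 and Mgl2.

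Il4ra encodes the signalling chain shared by the IL-4 and IL-13 receptors and spans 125552120 to 125579474 on the plus strand of chromosome 7. It was at 181, 186 and 180 CPM in PKM2FL/FL libraries 1 to 3 and at 179, 170 and 185 CPM in PKM2ΔMAC libraries 1 to 3. The groups overlapped, with a log2 fold change of -0.035 (SE 0.043, 95% interval -0.13 to 0.063, edgeR adjusted p = 0.847) that was 0.037 on the TPM scale. A loss or gain of over 10% was therefore outside the interval of the fold, 0.913 to 1.04. Stat6, the transcription factor below this receptor, lies on chromosome 10 from 127642986 to 127660957, 10360665 bases from Lyz2, and was at 245, 249 and 242 CPM in PKM2FL/FL and 232, 233 and 237 CPM in PKM2ΔMAC libraries. Each PKM2ΔMAC library was below each PKM2FL/FL library by a small margin, with a log2 fold change of -0.070 (SE 0.036, edgeR adjusted p = 0.572) that was 0.0024 on the TPM scale. Libraries of the genotypes were apart in this way, in either direction, for 17.2% of all genes tested, and lower in PKM2ΔMAC for 8.32%. These are mRNA levels and carry no measure of STAT6 phosphorylation.

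Among the partners of IL4Rα, Il2rg, the common γ chain, was at 28.8 and 32.2 CPM in PKM2FL/FL and PKM2ΔMAC BMDMs, and Il13ra1, the chain that binds IL-13, at 41.4 and 38.9 CPM. Il4 itself, the ligand, had few reads, with 158, 165 and 151 counts in PKM2FL/FL and 103, 115 and 100 counts in PKM2ΔMAC libraries. It was apart and lower in PKM2ΔMAC BMDMs by a log2 fold change of -0.59 (SE 0.15), but did not pass the adjusted threshold (edgeR adjusted p = 0.225). Il4 is also made by mast cells and basophils, and is itself 1 of the 6 markers listed for them. Of the others, Cpa3, a mast cell protease, had 34, 36 and 41 counts in PKM2FL/FL and 20, 12 and 9 counts in PKM2ΔMAC libraries, apart and lower like Il4 (edgeR adjusted p = 0.233). Fcer1a had 2 counts in each PKM2FL/FL library and 0 in each PKM2ΔMAC library, Mcpt8 and Ms4a2 overlapped between the genotypes, and Mcpt4 had at most 6 counts. The part of these cells in the level of Il4 was not tested. Il13 had at most 3 counts in every library. Of the 7 kinases, adaptors and brakes of the receptor, 0 were called and 2 had an unadjusted p under 0.05 in edgeR's test, as 9.83% of all genes did. By TPM the highest of them were Jak1, a kinase of the receptor, at 450 and 435 CPM, Ptpn6, a phosphatase that restrains it, at 293 and 317 CPM, and Socs3, a feedback inhibitor, at 57.8 and 62.7 CPM.

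Clec10a, which binds galactose and N-acetylgalactosamine on glycoproteins, was at 38.3, 46.5 and 44.8 CPM in PKM2FL/FL libraries 1 to 3. In PKM2ΔMAC libraries 1 to 3 it was at 27.8, 24.2 and 22.7 CPM. The highest PKM2ΔMAC library was thus below the lowest PKM2FL/FL library, and the means were 43.2 ± 4.31 CPM and 24.9 ± 2.60 CPM (SD, n = 3 each). The log2 fold change was -0.80 (SE 0.10, 95% interval -1.02 to -0.57), a fold of 0.576 with an interval of 0.494 to 0.672. The adjusted p was 0.0143 by the quasi-likelihood test of edgeR, with Benjamini-Hochberg adjustment over 16516 genes. Of those genes 0.412% were called in either direction, 0.285% higher and 0.127% lower in PKM2ΔMAC BMDMs. The 1 of 8 genes called here thus compares with 68 of 16516. A two-sided exact permutation test gave p = 0.10, the smallest that 3 against 3 libraries allow. The call was lost without PKM2FL/FL replicate 2 (log2 fold change -0.74, edgeR adjusted p = 0.0977) or PKM2FL/FL replicate 3 (-0.77, edgeR adjusted p = 0.135). It was also lost on the TPM values with limma-trend, at -0.72 to -0.71 (adjusted p 0.0935 to 0.133).

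Mgl2, which encodes the closely related lectin CD301b, was at 3.58, 4.08 and 4.37 CPM in PKM2FL/FL and 2.92, 2.75 and 2.40 CPM in PKM2ΔMAC libraries. The genotypes did not overlap, with a log2 fold change of -0.57 (SE 0.15, 95% interval -0.92 to -0.23). It did not pass the threshold (edgeR adjusted p = 0.246, unadjusted p = 0.00488). The ratio of Clec10a to Mgl2 in CPM was 10.7, 11.4 and 10.2 in PKM2FL/FL and 9.50, 8.80 and 9.46 in PKM2ΔMAC libraries. This ratio was lower in every PKM2ΔMAC library than in any PKM2FL/FL library. Pearson's r of both genes was 0.98 over the 6 libraries, a description that rests largely on the gap between the genotypes, and within PKM2FL/FL the highest library was replicate 2 for Clec10a and replicate 3 for Mgl2. Among the genes whose log2 CPM was most like that of Clec10a, out of 9091 genes of at least 10 CPM, were Washc2, Slc41a1, Gpr132 and Bod1l with r = 0.98 each, over the same 6 libraries. Clec10a also marks dendritic cells, whose 6 markers summed to between 3.75 and 4.07 CPM in PKM2FL/FL and between 3.47 and 4.37 CPM in PKM2ΔMAC libraries. The part of these cells in the level of Clec10a was not tested.

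Mrc1 encodes the mannose receptor CD206, the protein by which the study gates M2 macrophages in flow cytometry of cultures treated with IL-4. It was at 846, 896 and 872 CPM in PKM2FL/FL and 765, 681 and 960 CPM in PKM2ΔMAC libraries. PKM2ΔMAC replicate 3 had the highest and PKM2ΔMAC replicate 2 the lowest level of all 6, so the genotypes overlapped. The log2 fold change was -0.12 (SE 0.12, 95% interval -0.41 to 0.17, edgeR adjusted p = 0.813), and the interval of the fold ran from 0.752 to 1.13. Leaving out PKM2ΔMAC replicate 2 gave -0.014 and leaving out PKM2ΔMAC replicate 3 gave -0.27, and neither passed (edgeR adjusted p = 0.979 and 0.150). Set against Cd86, whose protein the study gates as M1 marker in separate cultures with LPS and IFN-γ, the log2 ratio of Mrc1 to Cd86 was 6.11 ± 0.105 in PKM2FL/FL and 6.06 ± 0.261 in PKM2ΔMAC libraries (SD, n = 3 each), a difference of -0.050 (two-sided exact permutation test, p = 0.70). The sign of this difference changed when PKM2FL/FL replicate 1 (0.0096), PKM2ΔMAC replicate 1 (0.026) or PKM2ΔMAC replicate 2 (0.024) was left out. The paralog Mrc2, which encodes a collagen receptor, was at 64.6 and 73.6 CPM in PKM2FL/FL and PKM2ΔMAC BMDMs.

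Cd163, the receptor for haemoglobin bound to haptoglobin, was at 10.1, 11.4 and 8.96 CPM in PKM2FL/FL and 4.45, 9.01 and 6.10 CPM in PKM2ΔMAC libraries. The genotypes touched at PKM2ΔMAC replicate 2, which was just above PKM2FL/FL replicate 3. The log2 fold change of -0.64 (SE 0.25, 95% interval -1.23 to -0.043) did not pass the threshold (edgeR adjusted p = 0.474). Without PKM2ΔMAC replicate 2 it was -0.95 and passed (edgeR adjusted p = 0.0133), and leaving out PKM2ΔMAC replicate 1 gave -0.42 (edgeR adjusted p = 0.581). Stab1, the scavenger receptor stabilin-1, was at 2380, 2885 and 2742 CPM in PKM2FL/FL and 2046, 2835 and 2065 CPM in PKM2ΔMAC libraries. Here too PKM2ΔMAC replicate 2 lay among the PKM2FL/FL libraries while the other two were lower, and the log2 fold change was -0.20 (SE 0.15, 95% interval -0.56 to 0.15, edgeR adjusted p = 0.720). Without PKM2ΔMAC replicate 2 it was -0.38 (edgeR adjusted p = 0.0821) and leaving out PKM2ΔMAC replicate 1 or 3 gave -0.12 or -0.13. Stab1 overlaps Nt5dc2 on the opposite strand and Stat6 overlaps Nab2, both much lower at between 38.3 and 82.9 CPM, and whether the counting used strand is not stated.

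**Figure D2:**
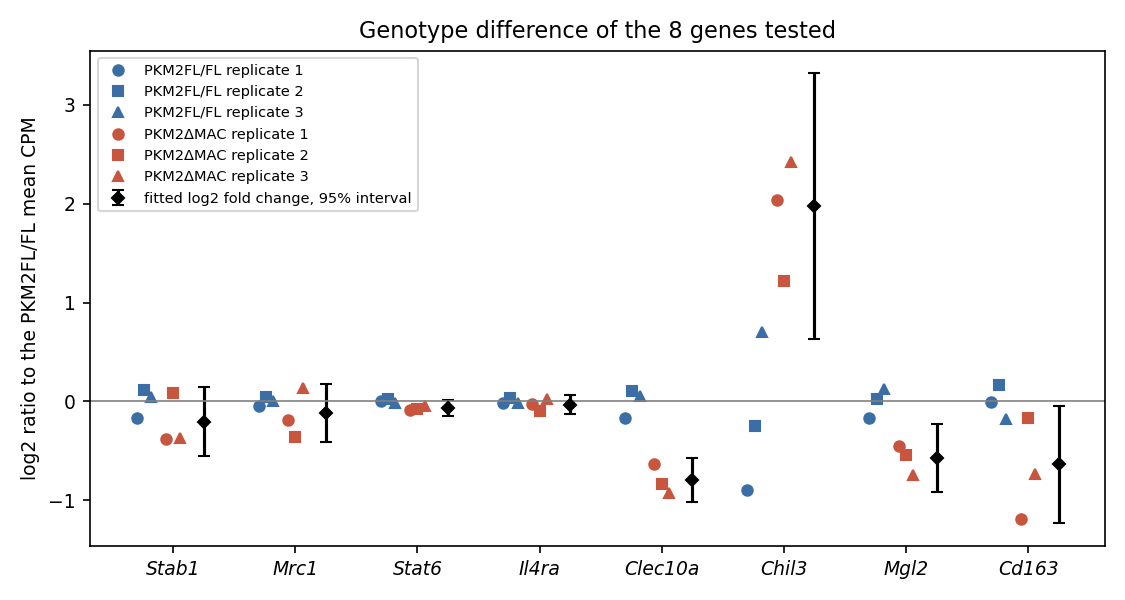
CPM of the 8 genes tested in each library, as the log2 ratio to the PKM2FL/FL mean, with the fitted log2 fold change and its 95% interval in black. The interval of Clec10a runs from -1.02 to -0.57 and that of Chil3 from 0.63 to 3.32, while those of Stab1, Mrc1, Stat6 and Il4ra include 0.

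Chil3, which encodes the chitinase-like lectin Ym1, lies on the minus strand of chromosome 3 from 106147554 to 106167564. It was at 3.88, 6.08 and 11.7 CPM in PKM2FL/FL libraries 1 to 3 and at 29.7, 16.8 and 38.7 CPM in PKM2ΔMAC libraries 1 to 3. It was the only 1 of the 8 genes tested with a higher level in PKM2ΔMAC BMDMs, and every PKM2ΔMAC library exceeded every PKM2FL/FL library. The log2 fold change was 1.98 (SE 0.52, 95% interval 0.63 to 3.32), and with the wide spread inside each genotype it did not pass the threshold (edgeR adjusted p = 0.355, unadjusted p = 0.0129). DESeq2 called it with an adjusted p of 0.0360, and the adjusted p ranged from 0.0360 to 0.725 over all alternatives. Chil3 is also known as a gene of neutrophil precursors. The 8 neutrophil markers summed to 20.3, 34.9 and 48.8 CPM in PKM2FL/FL and 122, 90.1 and 170 CPM in PKM2ΔMAC libraries, which put the 6 libraries in the same order as Chil3 did. Of these 8 markers 5 were apart and higher in PKM2ΔMAC BMDMs, as were 8.92% of all genes tested. In edgeR's test 0 were called and 5 had an unadjusted p under 0.05, beside 0.412% and 9.83% of all genes. Of the 8 markers 0 were at 3 counts or fewer in every library. The 3 with the highest levels were S100a9, at 8.19 and 32.5 CPM in PKM2FL/FL and PKM2ΔMAC BMDMs, Ngp at 4.10 and 30.5 CPM, and Ltf at 4.49 and 22.1 CPM. Their part in the level of Chil3 was not tested. The paralog Chil1 was at 0.449 and 0.951 CPM.

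**Figure D3:**
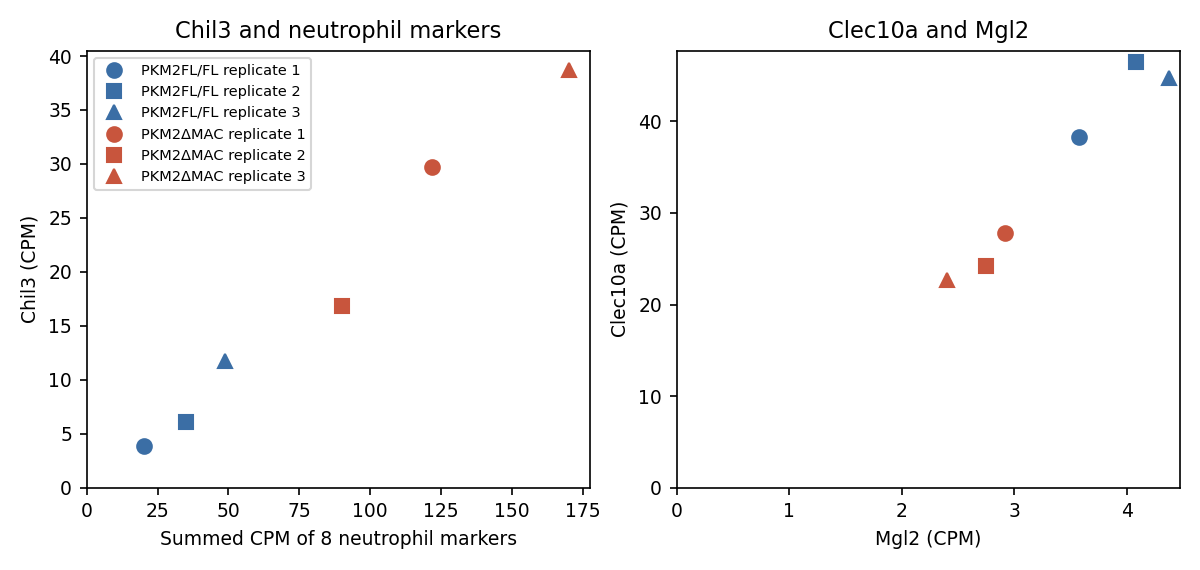
Left, CPM of Chil3 against the summed CPM of 8 neutrophil markers in each library. Right, CPM of Clec10a against that of Mgl2. Chil3 runs from 3.88 to 38.7 CPM in the order of the marker sum, and the PKM2ΔMAC libraries lie below the PKM2FL/FL libraries for both lectin genes.

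Retnla, which encodes the secreted protein RELMα, had 11, 0 and 4 counts in PKM2FL/FL libraries 1 to 3 and 10, 10 and 8 counts in PKM2ΔMAC libraries 1 to 3. It did not pass the filter on low counts, and the PKM2FL/FL libraries ran from 0 to the highest count of all 6, so no fold is given and a difference was not detectable at this depth. No other gene shared a 50-base window with it.

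Of the genes that use arginine, an amino acid whose fate differs between the M1 and M2 states, Nos2, which makes nitric oxide from it, had between 2 and 26 counts per library. The genes with the highest levels were well expressed and close between the genotypes. Oat, which turns ornithine towards proline, was at 137 and 139 CPM in PKM2FL/FL and PKM2ΔMAC BMDMs, Odc1, which starts polyamine synthesis, at 51.2 and 52.7 CPM, and Asl, which remakes arginine, at 45.0 and 43.3 CPM. Of the 8 genes of arginine metabolism 0 were called and 2 had an unadjusted p under 0.05 in edgeR's test, beside 0.412% and 9.83% of all genes.

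Across the 8 genes tested, 7 had a negative log2 fold change and 1 a positive one, with a median of -0.16 against -0.00021 for all genes tested. Because the sign for Stat6 and Il4ra turned on the TPM scale, where the median of all genes moved to between 0.060 and 0.066, 5 of the 7 were negative under every alternative. An unadjusted p under 0.05 was found for 4 of the 8, Clec10a, Mgl2, Cd163 and Chil3, beside 9.83% of all genes. The libraries did not overlap for Clec10a, Mgl2, Stat6 and Chil3, beside 17.2% of all genes.

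Around the M2 genes, 9 gene lists were described, which include the paralogs and the priming genes beside those of the wider pathway. They held 87 genes in all, of which 76 were tested. Of these, 17 had an unadjusted p under 0.05 in edgeR's test, beside 9.83% of all genes. The libraries of the genotypes were apart for 19, beside 17.2% of all genes. After adjustment 1 was called, beside 0.412% of all genes. That gene was Msr1, scavenger receptor A, at 141, 126 and 135 CPM in PKM2FL/FL and 164, 177 and 186 CPM in PKM2ΔMAC libraries. It rose by a log2 fold change of 0.39 (SE 0.059, edgeR adjusted p = 0.0371), but the call was lost when any 1 PKM2FL/FL library (adjusted p 0.109 to 0.239) or PKM2ΔMAC replicate 3 (adjusted p = 0.0632) was left out, and with non-robust estimation (adjusted p = 0.0638) or on TPM with limma-trend (adjusted p 0.0756 to 0.111). Cd36, the receptor for oxidised lipoproteins, had a like log2 fold change of 0.39 (381 and 500 CPM) and did not pass (edgeR adjusted p = 0.167). Fcgr2b, the inhibitory Fc receptor, was at 173, 170 and 198 CPM in PKM2FL/FL and 158, 74.8 and 177 CPM in PKM2ΔMAC libraries, so the genotypes overlapped (edgeR adjusted p = 0.778) and PKM2ΔMAC replicate 2 was by far the lowest. These are scavenger and resident type genes, a list with 9 genes tested and a median of 0.17.

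For comparison with the lists here, 0.412% of all genes tested were called and 9.83% had an unadjusted p under 0.05 in edgeR's test. Of 10 IL-4 and STAT6 inducible genes tested 0 were called, with a median of 0.13, and 1 had an unadjusted p under 0.05. The highest were Atp6v0d2, a proton pump subunit, at 339 ± 83.8 and 321 ± 155 CPM in PKM2FL/FL and PKM2ΔMAC BMDMs, Itgax, which encodes CD11c, at 232 ± 67.7 and 264 ± 131 CPM, and Tgm2, a transglutaminase, at 81.4 ± 3.96 and 65.6 ± 3.58 CPM (SD, n = 3 each). Atp6v0d2 and Itgax varied more inside a genotype than between them. Tgm2 was apart and lower, with a log2 fold change of -0.31 (SE 0.054), and narrowly missed the threshold (edgeR adjusted p = 0.0667). Of 17 alternatives it passed under 4, among them DESeq2 (adjusted p = 0.00233) and edgeR without PKM2ΔMAC replicate 2 (adjusted p = 0.0200), and missed under 13. The 10 transcription factors of alternative activation had 0 calls, 0 with an unadjusted p under 0.05 in edgeR's test and a median of -0.0096. Cebpb, a factor of both inflammatory and alternative activation, was at 98.5 and 93.6 CPM, and Pparg, a lipid-sensing factor of alternative activation, at 56.0 and 56.1 CPM. IL-10 and glucocorticoid type genes, the branch of Cd163 and Stab1, had 0 calls among 9 and a median of -0.098. Of these 9 genes 3 had an unadjusted p under 0.05, beside 9.83% of all genes. Il1rn, the IL-1 receptor antagonist, was at 290 and 330 CPM, and the chains of the IL-10 receptor were at 218 and 198 CPM for Il10ra and at 153 and 141 CPM for Il10rb. Of the 8 paralogs tested 0 were called and 5 had an unadjusted p under 0.05, beside 9.83% of all genes. Among the 5 were Stat3 at 257 and 241 CPM and Stat5b at 87.7 and 81.9 CPM. All 15 priming genes tested lacked a call in edgeR's test as well, and 1 had an unadjusted p under 0.05.

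**Figure D4:**
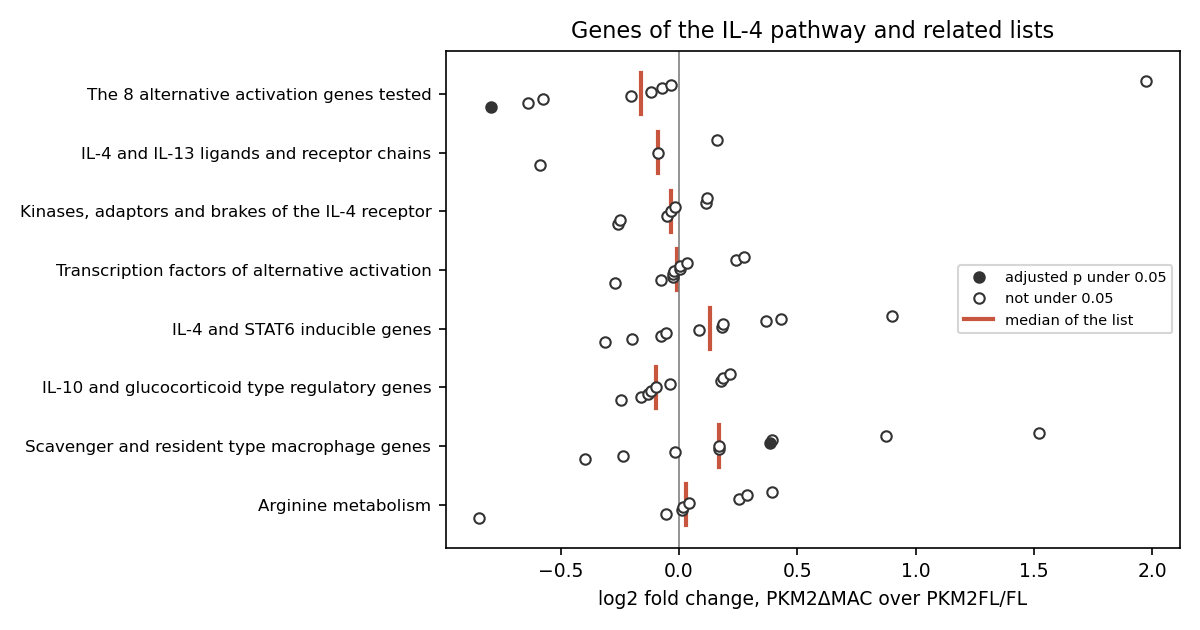
Log2 fold changes of PKM2ΔMAC over PKM2FL/FL for the 8 genes tested and for 7 lists of the pathway, 1 circle per gene. Filled circles have an edgeR adjusted p under 0.05 and red lines mark medians. Clec10a, at -0.80, and Msr1, at 0.39, are the filled circles, and the medians lie between -0.16 and 0.17.

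Of the markers of other cells that could be in a marrow culture, those of stromal cells and monocytes had the highest sums. Monocyte markers summed to between 176 and 234 CPM in PKM2FL/FL and between 202 and 266 CPM in PKM2ΔMAC libraries. Eosinophil markers were between 9.81 and 15.3 CPM and between 16.9 and 22.1 CPM, with Ccr3 called higher in PKM2ΔMAC BMDMs (5.53 and 11.6 CPM, edgeR adjusted p = 0.00263) and the defining genes Epx and Il5ra at 3 counts or fewer everywhere. Mast cell and basophil markers were between 2.94 and 7.25 CPM over all libraries, B cell markers between 39.4 and 55.2 CPM and T and NK cell markers between 9.69 and 20.6 CPM. Among macrophage markers Itgam, which encodes CD11b, was called higher in PKM2ΔMAC BMDMs (196 and 264 CPM, edgeR adjusted p = 0.00272), and Lyz2, the locus that carries Cre, fell from 17825 to 28.4 CPM. The part of these cells in the levels of the M2 genes was not tested.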

How the data were processed

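RNA-seq data of 3 PKM2FL/FL and 3 PKM2ΔMAC BMDM cultures labelled as LPS/IFN-γ-primed were used. Per the labels, libraries were made from total RNA with a SMARTER kit. The submitters' processing notes list FastQC 0.12.1, Trim Galore 0.6.10, HISAT2 2.2.1, SAMtools 1.19.2, Subread 2.0.6 and the build mm10, which is GRCm38. The annotation, the strand setting and the treatment of reads that fit several genes are not given in the sources used here. Deposited were unnormalized read counts for 23935 gene symbols and the authors' TPM values of the same symbols. Columns were matched to libraries by genotype and number, and 0 were left unmatched. Pairs of libraries of a genotype differed by more than sampling noise (chi-square test of their counts), and each was kept as a replicate. The labels number the mice but do not say that each library came from a separate mouse, so p-values measure the spread between these samples.

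Counts were compared with edgeR 4.0.16 (R 4.3.3, limma 3.58.1) by the quasi-likelihood test, with TMM factors of 0.980 to 1.04, filterByExpr (16516 genes kept), robust estimation, genotype as the only term and Benjamini-Hochberg adjustment with a threshold of 0.05. SE is the absolute log2 fold change over the square root of F. Permutation tests were two-sided and exact on log2(CPM + 0.1). On simulated counts for these 16516 genes, 186 of 200 changed genes were called, with 5 false calls. Every changed gene was given the same size of change, and all genes a common dispersion. The simulation thus does not cover smaller changes or the unequal spread of the real genes, and gives no power for the genes described. Precision is limited by the spread between 3 libraries, and for genes of few counts by counting error too.

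The 10 genes and all lists were chosen with earlier results of these data known. Named genes were the 10, every list gene called and the 3 of each list with the highest TPM (CPM for markers and priming genes), and the 5 genes most like a called one. Some genes that this rule selects, and a planned ratio, are not reported here. Chil1, Il12b, Il13, Il6, Nos2, Cd86, Epx, Il5ra, Fcer1a, Ms4a2 and Mcpt4 are named beside them for their role or level, Cd86 as the partner of the Mrc1 ratio. Sequences came from GENCODE M21 and RefSeq (GRCm38.p6). The comparison was repeated with DESeq2 1.42.0, upper-quartile or RLE normalization, no filter, at least 10 counts in every library, down-sampling, non-robust estimation, a replicate block, limma-trend on log2 TPM with a pseudocount of 1 or 0.1, and each library left out.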

Additional observations from a re-analysis of the deposited data

How the results depend on the processing

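The count of M2 genes called was 1 and moved to 2 with DESeq2 (Clec10a and Chil3) and to 0 with the replicate block and with limma-trend on TPM at each pseudocount and filter. Leaving out 1 library gave 0 to 2, with 2 without PKM2ΔMAC replicate 2 (Clec10a and Cd163). The count of list genes called, with paralogs and priming genes included, was 1. It moved to 3 with DESeq2, 2 without a filter and 2 with the replicate block (Tgm2 and Cd36, with Msr1 lost). It was 0 with non-robust estimation and the same TPM fits. Leaving out 1 library gave 0 to 6, with 6 without PKM2ΔMAC replicate 2. The same library moved the count over all genes from 68 to 299, DESeq2 gave 289, and each PKM2FL/FL library left out gave 22 to 27. The causes were not tested.

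Clec10a stayed negative under all 17 alternatives, from -0.88 to -0.71, with adjusted p from 2.50e-10 to 0.135 over the 17. It kept its call under 11, and Msr1 stayed positive and kept its call under 8. On TPM, Il4ra turned to 0.037 and Stat6 to 0.0024 at either pseudocount and filter. The Mrc1 to Cd86 log2 ratio differed by -0.20 to 0.026 when 1 library was left out. The median of the M2 genes stayed between -0.22 and -0.10 under all 17.

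Deviations from the genotype mean gave r of 0.080, 0.141 and 0.019 for libraries with the same number. Libraries with different numbers gave -0.124 to 0.067. For each PKM2FL/FL library the same number gave the highest r, but PKM2ΔMAC replicate 3 was closer to PKM2FL/FL replicate 1 (0.067). These low values do not settle whether the numbers are pairs, and the main fit did not take them as pairs. With the replicate block, Clec10a was at -0.80 (adjusted p = 0.0685) and Msr1 at 0.39 (adjusted p = 0.0552), both no longer called, Tgm2 (adjusted p = 0.0220) and Cd36 (adjusted p = 0.0234) passed, and 82 genes were called over all. Depth limits Retnla, which was not called without a filter (adjusted p = 0.897).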
